A study of Sus scrofa with 32 samples.

Results

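The fetal muscle transcriptome of the pig contained 1370 transcribed loci without a gene name on chromosomes 1 to 18. They were selected on measured values and position in an expression table of 30413 loci by 4 conditions: no gene name in the table, a place on one of the numbered autosomes, a listed span of more than 200 bases, and a mean above 1 FPKM over 32 fetuses. FPKM counts sequenced fragments per length of transcript, scaled to the number of fragments mapped in the library. Of the 30413 loci, 5504 had no gene name, 5187 of these lay on chromosomes 1 to 18, 5125 exceeded the length limit and 1370 also exceeded the level limit. The level and the span chose the loci and are given here as a description. Just inside the level limit lay XLOC_022606 and XLOC_007274 with means of 1.0005 and 1.0022 FPKM, and just outside it XLOC_024557 and XLOC_007040 with 0.9999 and 0.9996 FPKM. At the length limit, XLOC_022630 and XLOC_024428 had 201 bases and 2.82 and 7.81 FPKM, while XLOC_018272 with 200 bases and 11.09 FPKM and XLOC_027456 with 199 bases and 1.85 FPKM were left out.

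The samples were longissimus dorsi muscle, the long muscle of the back, of 32 fetuses at gestation day 77. Of these, 16 were crossbred Iberian x Large White fetuses and 16 were pure Iberian fetuses, with 8 females and 8 males in each genotype. According to the study's methods all fetuses were carried by pure Iberian sows, inseminated with mixed semen of both sire breeds, so both genotypes shared the Iberian maternal side. All sows were also fed below their maintenance needs during gestation until sampling. The study states that this diet alters fetal development and leads to low body weight, and all 32 fetuses shared it. The first 4 digits of each fetus name, which take 7 values, were taken to mark the sow although the labels do not say so. By this reading 5 sows carried both genotypes. The study chose fetuses of high and low body weight, and the weight group was not used here. Fetuses of 1 sow are not independent, and p-values that ignore the sow measure only the spread between fetuses. The muscle fibre markers fixed for this check, among them ACTA1, MYH3 and DES, were found for 8 of 10 symbols and summed to 12264 to 39626 FPKM in crossbred against 11292 to 39479 FPKM in Iberian fetuses. No counts were analysed here. From the ratios of FPKM values under 0.1 between libraries, the relative depth was estimated as 0.713 to 1.397 times the average library, with a median of 1.05 in crossbred and 0.914 in Iberian fetuses.

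Transcript assembly from short reads joins overlapping fragments into loci whether or not a gene is annotated there. Loci without a name can be long non-coding RNAs, ends of genes that the annotation stops short of, RNA that continues past the end of a gene, introns, or copies of abundant RNAs elsewhere in the genome. The reads were sequenced without strand, so RNA of a gene and RNA of the opposite strand cannot be told apart.

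The letters of a few of these loci show how different they are. The first set holds the shortest loci that were lower in crossbred fetuses, printed whole, and the first 300 bases of the locus next to the muscle gene MYOD1. All are read 5′ to 3′ on the plus strand of Sscrofa11.1 from the RefSeq genome, and capitals mark bases that the genome does not mask as repeats. XLOC_022556 lies at chr6:69599903-69600117, XLOC_002284 at chr1:54628079-54628365, XLOC_003223 at chr10:11712488-11712787, and the stretch of XLOC_014705 at chr2:41419209-41419508. None of the 4 overlapped a RefSeq gene.
XLOC_022556: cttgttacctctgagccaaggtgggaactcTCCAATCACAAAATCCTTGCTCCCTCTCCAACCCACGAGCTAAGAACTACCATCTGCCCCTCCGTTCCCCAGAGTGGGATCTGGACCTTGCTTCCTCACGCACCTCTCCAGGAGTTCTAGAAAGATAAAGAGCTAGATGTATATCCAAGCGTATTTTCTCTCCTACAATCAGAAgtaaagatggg
XLOC_002284: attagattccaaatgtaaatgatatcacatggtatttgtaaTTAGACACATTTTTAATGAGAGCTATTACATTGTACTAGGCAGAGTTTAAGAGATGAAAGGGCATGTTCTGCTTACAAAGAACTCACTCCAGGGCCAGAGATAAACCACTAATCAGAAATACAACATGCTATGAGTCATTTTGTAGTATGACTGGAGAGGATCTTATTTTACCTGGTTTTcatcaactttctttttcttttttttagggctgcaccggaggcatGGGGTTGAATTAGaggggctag
XLOC_003223: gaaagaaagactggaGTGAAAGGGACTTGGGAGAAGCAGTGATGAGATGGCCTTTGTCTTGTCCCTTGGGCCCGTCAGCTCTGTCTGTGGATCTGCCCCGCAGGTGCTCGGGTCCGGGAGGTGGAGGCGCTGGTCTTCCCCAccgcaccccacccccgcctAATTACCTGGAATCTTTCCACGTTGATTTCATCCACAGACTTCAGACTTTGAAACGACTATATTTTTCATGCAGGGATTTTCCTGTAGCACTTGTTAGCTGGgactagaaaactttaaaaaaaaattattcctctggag
XLOC_014705: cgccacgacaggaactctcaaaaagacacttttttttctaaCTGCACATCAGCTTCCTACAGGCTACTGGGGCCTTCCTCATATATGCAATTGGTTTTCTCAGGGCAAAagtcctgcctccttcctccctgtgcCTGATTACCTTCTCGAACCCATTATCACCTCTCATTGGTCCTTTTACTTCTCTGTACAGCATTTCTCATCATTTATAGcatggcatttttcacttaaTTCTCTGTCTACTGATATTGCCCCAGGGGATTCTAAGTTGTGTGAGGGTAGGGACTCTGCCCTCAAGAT

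The second set shows loci that resemble abundant ribosomal RNA. XLOC_024391, the locus with the highest level, is shown by its first 200 bases (chr7:10867705-10867904, plus strand), where capitals mark the bases that matched a scaffold holding ribosomal DNA. For XLOC_018289 a window of 120 bases (chr4:53953074-53953193, plus strand) is set above the mitochondrial genome from 1901 to 2020, inside the 12S ribosomal RNA gene at 1246 to 2205, and capitals mark the 5 bases that differ between the lines.
XLOC_024391: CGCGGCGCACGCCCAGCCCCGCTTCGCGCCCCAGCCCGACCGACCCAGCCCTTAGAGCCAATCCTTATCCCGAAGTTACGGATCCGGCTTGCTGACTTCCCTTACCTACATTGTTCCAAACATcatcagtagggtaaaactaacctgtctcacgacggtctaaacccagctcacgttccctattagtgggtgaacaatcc
XLOC_018289: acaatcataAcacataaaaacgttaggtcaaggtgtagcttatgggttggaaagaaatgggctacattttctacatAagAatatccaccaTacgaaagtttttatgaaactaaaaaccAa
mitochondrial genome: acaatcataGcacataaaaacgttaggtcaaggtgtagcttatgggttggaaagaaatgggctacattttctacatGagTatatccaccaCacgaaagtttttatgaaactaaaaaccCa

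Most of the unannotated loci were expressed at a low level. Their median was 1.90 FPKM, with quartiles of 1.305 and 3.37 FPKM, against 9.14 FPKM for the 11671 named loci under the same limits. Means under 2 FPKM were found for 716 of the 1370 loci (52.3%), against 10.2% of the named loci, and 63 exceeded 10 FPKM. The table lists 1 span for all loci of an assembled bundle: 885 loci had a span of their own, and 485 were listed with a span that other loci share, 351 of them together with a named locus. For these 485 the span is not the length or position of the locus itself. The 885 loci with their own span had a median span of 813 bases (quartiles 418 and 2189), from 201 bases to the 394842 bases of XLOC_003490, which overlapped exons of a non-coding RefSeq gene at 1.10 FPKM. Named loci with their own span had a median of 35616 bases.

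**Figure D1:**
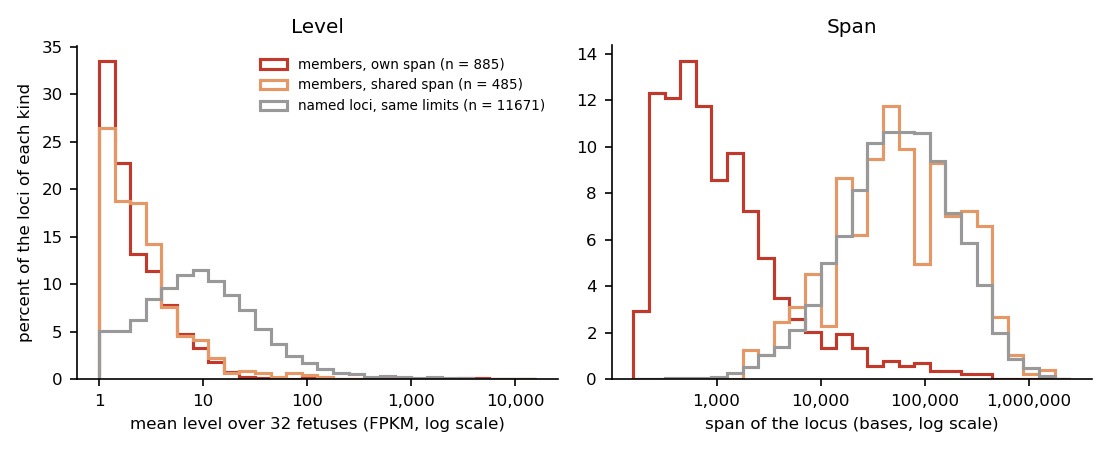
Percent of loci (vertical axes) by mean level in FPKM (left) and by listed span in bases (right), both on log scales, for unannotated loci with a span of their own, unannotated loci with a shared span, and named loci under the same limits. The unannotated loci pile up near 1 FPKM, and those with their own span have a median of 813 bases; the named loci are drawn with all listed spans, and those with their own span have a median of 35616 bases.

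The 5 longest listed spans were all shared with named loci. XLOC_023584 and XLOC_024394 were listed with 1313293 bases on chromosome 7, XLOC_009881 with 1031008 bases on chromosome 15 around PARD3B, and XLOC_006169 and XLOC_005933 with 865042 and 852153 bases on chromosome 13. Their levels were low: XLOC_023584 had a median of 1.93 FPKM in crossbred against 1.69 FPKM in Iberian fetuses, and XLOC_009881 had 1.61 FPKM in crossbred against 1.66 FPKM in Iberian fetuses. Of these 5 only XLOC_006169 was called between genotypes.

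The spread among fetuses differed with the span, and was widest for the shortest loci. Of the 114 loci with their own span of 201 to 300 bases, 75 (65.8%) were listed at 0 in at least 1 fetus, and their median SD over the 32 fetuses was 0.87 on the log2(FPKM + 0.5) scale. Of the 221 loci over 1000 and up to 3000 bases, 4 (1.81%) were listed at 0 in a fetus, and the median SD was 0.38. The spread did not fall steadily with length: the median SD was 0.54 for the 230 loci of 301 to 600 bases, 49 of them (21.3%) with a 0, and 0.55 for the 74 loci over 10000 bases, 12 of them (16.2%) with a 0. Named loci had a median SD of 0.32 on the same scale, against 0.50 for all 1370 unannotated loci.

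Of the loci with their own span, a majority lay where RefSeq already annotates a gene. RefSeq release 106 of the same genome build was set against the 885 loci, and 458 of them (51.8%, 95% Wilson interval 48.5 to 55.0%) overlapped a gene. Of these, 230 touched untranslated exons of protein-coding genes without touching coding sequence, 132 touched exons of non-coding genes, 53 touched coding exons and 43 lay within introns. The median share of the span inside RefSeq exons was 100% for the loci touching untranslated exons. The other 427 lay between genes, at a median distance of 3171 bases from the nearest gene, and 9 of them were more than 50 kb away.

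Loci between genes lay more often past the end of the nearest gene than before its start. Of the 427, 285 (66.7%) were downstream of the nearest gene and 142 upstream of it. Within 5 kb there were 181 downstream and 97 upstream loci, whereas within 1 kb the numbers were 33 and 44. The loci between genes had a median span of 617 bases and those touching untranslated exons 978.5 bases, and their median GC contents were 41.3% and 39.7%. Masked repeats made up a median of 23.6% of the span between genes and 22.2% for the loci touching untranslated exons.

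**Figure D2:**
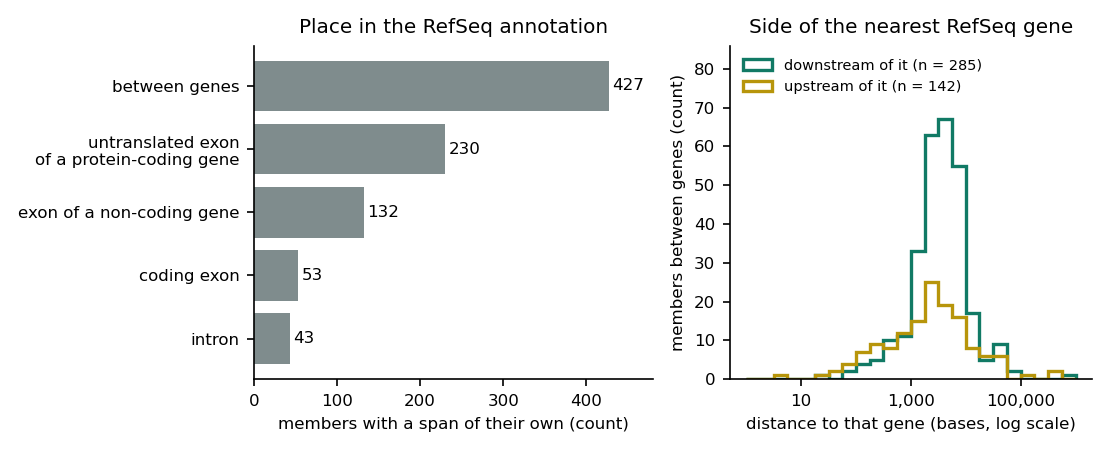
Left, number of unannotated loci with their own span in each class of the RefSeq annotation. Right, number of the 427 loci between genes by distance in bases (log scale) to the nearest RefSeq gene, for the 285 loci downstream and the 142 upstream of it; the downstream loci are concentrated between 1000 and 10000 bases.

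Measured against the named loci of the table itself, 1042 of the 1370 loci (76.1%, 95% Wilson interval 73.7 to 78.2%) lay within 5 kb of a named locus or shared its span. The same share was 72.9% for the 11671 named loci (72.1 to 73.7%). At shorter distances the order was reversed. Within 1 kb lay 51.1% of the unannotated and 61.4% of the named loci, and at a distance of 0 bases 25.6% and 50.7%. Within 10 kb the shares were 86.1% and 80.6%. The median distance was 856.5 bases for the unannotated loci and 0 bases for the named loci. For loci with their own span, 609 of 885 (68.8%) lay within 5 kb and the median distance was 2519 bases.

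Across the 32 fetuses the level of a locus followed that of the gene it touched only in part. For 158 loci touching untranslated exons whose gene has a named locus in the table, the median Pearson r with that locus was 0.42, and 62 pairs (39.2%) exceeded 0.5. For 123 loci within 5 kb downstream of such a gene the median r was 0.27, and for 66 loci within 5 kb upstream it was 0.03. For 24 loci in introns it was -0.03, with no pair over 0.5. Neighbouring named loci within 5 kb of each other had a median r of 0.29 over 1185 pairs. These correlations on log2(FPKM + 0.5) are a description: all pairs share the same libraries.

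Many of the loci stood in rows. Joining loci with their own span that lay at most 1 kb apart gave 139 rows with 381 of the 885 loci (43.1%), 59 of them with 3 or more loci and 8 loci in the longest. Rows of 8 included those over TCP11 on chromosome 7 (31097670 to 31113308) and past the end of SMIM7 on chromosome 2 (60973881 to 60982066). A row of 5 on chromosome 13 (82560065 to 82564880) followed the end of RNF7.

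The row of 5 on chromosome 2 from 41413648 to 41419557 stood beside MYOD1, the transcription factor that commits cells to the muscle lineage. MYOD1 is on the minus strand, at 41422522 to 41424236 in RefSeq, so the row lies past its 3′ end, between it and the potassium channel gene KCNC1. The table's MYOD1 locus starts at 41419700, which is 143 bases beyond XLOC_014705, and had 66.4 ± 21.0 FPKM in crossbred against 48.3 ± 17.2 FPKM in Iberian fetuses (n = 16 per genotype, ± SD). The 5 loci had means over all fetuses of 3.78 to 9.60 FPKM, XLOC_014705 being the highest.

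The 5 loci of the row varied together over the 32 fetuses. The 10 pairwise Pearson correlations were 0.70 to 0.97 and the Spearman correlations 0.68 to 0.95, with adjusted p of at most 2e-05 and 4e-05 in permutation tests (100000 resamples, Benjamini-Hochberg over 10 pairs), and r was at least 0.57 without the 2 fetuses farthest from the median. All these pairs share the same libraries, and the permutation tests ignore the sow. The mean deviation of all unannotated loci also differed among libraries, from -0.34 in 1417F3L to 0.35 in 1410F2L on the log2 scale. Its part in these correlations was not tested. The relation of the 5 loci to MYOD1 itself was weak. Pearson r with MYOD1 was 0.09 for XLOC_014701 and 0.32 to 0.36 for the other 4, with adjusted p of 0.096 to 0.64, and Spearman's rho was -0.10 to 0.19 with adjusted p of 0.6 (permutation tests, Benjamini-Hochberg over 5 relations). Without the 2 farthest fetuses r was -0.15 to 0.19. Within crossbred fetuses r was -0.41 to -0.24 and within Iberian fetuses 0.09 to 0.59.

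Among the 10 loci with the highest levels were some that resemble ribosomal or mitochondrial RNA and some whose listed span overlies a known gene. XLOC_024391 (chromosome 7, 10867705 to 10868341), in an intron of the non-coding gene LOC106504325, had 1864, 3582 and 10612 FPKM as lowest, median and highest value in crossbred fetuses, against 2410, 4060 and 5540 FPKM in Iberian fetuses. Its first 123 bases were 97.6% identical to an unplaced scaffold of ribosomal DNA, and the match ended 4160 bases past the 5.8S ribosomal RNA gene of that scaffold. The groups overlapped over almost their whole range, with a log2 fold change of 0.03 (SE 0.18).

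XLOC_018736 (chromosome 5, 21506535 to 21507790) overlapped an untranslated exon of ZC3H10 and had 1617, 3304 and 7504 FPKM in crossbred fetuses, against 1657, 2908 and 6001 FPKM in Iberian fetuses. The named ZC3H10 locus 411 bases away averaged 4.40 ± 1.22 FPKM in crossbred against 4.39 ± 1.03 FPKM in Iberian fetuses (n = 16 per genotype, ± SD), far below the unannotated locus.

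XLOC_018289 (chromosome 4, 53952873 to 53954299) matched the mitochondrial genome over 99.8% of its span at 98.5% identity, across positions 1701 to 3125 in the 12S and 16S ribosomal RNA genes. It had 38.2, 111 and 495 FPKM in crossbred fetuses and 11.7, 100.02 and 406 FPKM in Iberian fetuses, a 42.2-fold range over all 32 fetuses. XLOC_027274 (chromosome 9, 4700348 to 4700806) was 99.1% identical to mitochondrial positions 6093 to 6550 and ranged from 0.694 to 60.7 FPKM. In the table the largest named mitochondrial locus was listed at 0 in 4 fetuses and at 32502 to 91703 FPKM in the others, and the part that the assignment of reads with several matches has in these levels was not tested. Of the 885 loci with their own span, 145 matched some RefSeq transcript, mitochondrial or ribosomal sequence elsewhere at 85% identity or more, but in only 7 did the match cover more than 50% of the span.

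XLOC_024577, XLOC_024578 and XLOC_024579 were listed with a span of 7 loci on chromosome 7 (121656050 to 121690113). This span includes MEG3, an imprinted non-coding RNA expressed from the maternal copy in mammals. RefSeq places MEG3 at 121656253 to 121660495, and whether the 3 loci lie there is not known. XLOC_024578 had 46.6, 127 and 313 FPKM in crossbred fetuses and 19.6, 59.7 and 303 FPKM in Iberian fetuses. Its log2 fold change was 0.59 (SE 0.31, adjusted p = 0.314 in limma). XLOC_024579 and XLOC_024577 had 0.53 and 0.57, and none of the 3 was called. XLOC_012692, over coding exons of TSG101, a sorting protein of the endosome, had the narrowest range of the 10 loci with the highest levels, with 59.4 to 122 FPKM in crossbred against 68.1 to 114 FPKM in Iberian fetuses. XLOC_023692, listed with the span of the small nucleolar RNA SNORD52, and XLOC_021585 and XLOC_020433, with shared spans between EMC10 and the locus of ASPDH and JOSD2 and over no RefSeq gene, completed the 10 at means of 160, 108 and 70.6 FPKM over all fetuses, and no locus of the 10 was called between genotypes.

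Between genotypes, 39 of the 1370 unannotated loci were called (2.85%), against a background of 1.36% of the 16750 loci tested in the table. The test was limma on log2(FPKM + 0.5) over the whole table, and calls needed a fold of 1.3 or more and a p, adjusted by Benjamini-Hochberg, of 0.05 or less. On this scale the change of a low locus is understated. Of the 39 loci, 25 were higher in crossbred fetuses (background 0.848%) and 14 were lower (background 0.507%). Under the same limits 99 of the 11671 named loci were called (0.848%). The median log2 fold change was 0.02 over the 1370 loci and 0.03 over all loci tested. The 39 loci came from 35 spans. In none of them did all fetuses of one genotype exceed all of the other, and 18 kept their call whichever single fetus was left out. For overlap and for single fetuses left out, the share over all loci tested is not given here.

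These calls depended on few fetuses and on the sow. With the sow as a block 8 loci were called, all higher in crossbred fetuses (background 0.287%), and 7 of them were among the 39. With the sow as a random effect 25 were called (background 0.985%), 23 of them among the 39. Leaving out 1 fetus gave 20 to 46 calls, and fewer than 26 without any one of the Iberian fetuses 1404F1L (23), 1404F2L (20), 1404F5L (25), 1404F7L (21), 1410F5L (21) or 1417F3L (20), or the crossbred fetuses 1417F2L (25) or 1417F9L (23). The direction was the same in all 5 sows with both genotypes for 21 of the 39 loci. For this count and for the fits without 1 fetus, the share over all loci tested is not given here.

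Adipocyte markers differed between genotypes in fitted value, without a call. All 10 adipocyte markers fixed for this check, among them ADIPOQ, PLIN1 and LEP, had lower fitted values in crossbred fetuses, with a median log2 fold change of -0.98. Their summed level was 25.4 to 141 FPKM in crossbred fetuses and 33.3 to 648 FPKM in Iberian fetuses, and no marker of the list was listed at 0 in a fetus. When 4 Iberian fetuses (1417F3L, 1404F2L, 1410F5L and 1404F1L) were left out, which had sums of 241 to 648 FPKM against 33.3 to 251 FPKM in the other 12, only 5 loci were called (background 0.245%), all of them among the 39: XLOC_019711, XLOC_024401, XLOC_024400, XLOC_002280 and XLOC_019858. These 4 were left out as an alternative added after seeing the data. They were not the 4 highest sums, since 1404F5L had 251 FPKM and 1404F1L 241 FPKM. Left out singly, each of the 4 already lowered the calls from 39 to between 20 and 23. The part of adipocyte RNA in the calls was not tested. Fewer cells of a type and less RNA per cell cannot be told apart in such samples. Of the other cell types, the macrophage markers were lower in crossbred fetuses for 8 of 8 and summed to 160 to 315 FPKM in crossbred against 159 to 557 FPKM in Iberian fetuses, with no call. Of the cartilage and bone markers 3 of the 6 found were lower in crossbred fetuses, with a median sum of 69.9 FPKM in crossbred against 111 FPKM in Iberian fetuses. SPP1, a protein of bone matrix that macrophages also make, was the 1 marker of this list that was called, with a log2 fold change of -1.08 (SE 0.25, adjusted p = 0.0246 in limma). The part of these cell types in the calls was not tested. Without a call, lower fitted values in crossbred fetuses were found for 5 of 6 endothelial, 4 of 6 fibroblast, 4 of 5 Schwann, 3 of 7 liver type and 1 of 6 erythroid markers. Of the muscle fibre markers found, 0 of 8 were lower in crossbred fetuses, with a median log2 fold change of 0.25 and no call. Their median sum was 24444 FPKM in crossbred against 19824 FPKM in Iberian fetuses, and the part of this in the calls was not tested.

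The largest increase in crossbred fetuses was that of XLOC_019711 on chromosome 5 (90499743 to 90521617), in a span of 3 unnamed loci over the RefSeq genes LOC106510424 and LOC106510426. It had 5.53, 8.24 and 15.3 FPKM as lowest, median and highest value in crossbred fetuses, against 1.04, 2.54 and 7.37 FPKM in Iberian fetuses. Every crossbred fetus exceeded the Iberian median, and 11 of 16 exceeded the highest Iberian fetus. The log2 fold change was 1.43 (SE 0.21, adjusted p = 0.000164 in limma), and adjusted p came to 0.00529 in the fit blocked on sow and to 0.00353 without the 4 fetuses named above. The named locus nearest to the shared span, ENSSSCG00000031633 at 8031 bases, averaged 1.31 ± 0.729 FPKM in crossbred against 1.04 ± 0.594 FPKM in Iberian fetuses (n = 16 per genotype, ± SD) and was not called.

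XLOC_008026 was the only locus with a span of its own among the 4 largest increases. It covers 231348 bases of chromosome 14 (5467515 to 5698862) over the non-coding genes LOC102164739 and LOC102166756, 44722 bases from GFRA2, a receptor for the growth factor neurturin. Its levels were 1.04, 1.97 and 2.96 FPKM in crossbred fetuses and 0, 0.801 and 2.61 FPKM in Iberian fetuses, so the ranges overlapped while every crossbred fetus exceeded the Iberian median. The log2 fold change was 1.03 (SE 0.20, adjusted p = 0.00809 in limma), and in the fit blocked on sow the adjusted p was 0.0686. GFRA2 had -0.48 and was not called.

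XLOC_009611 was listed with a span of 2 loci on chromosome 15 (25303190 to 25323773), over the RefSeq gene LOC102164258. The span, not the locus itself, is known to lie 4901 bases from BIN1, whose protein shapes the transverse tubules of muscle fibres. XLOC_009611 had 0.588, 1.90 and 8.49 FPKM in crossbred fetuses and 0.370, 0.920 and 2.23 FPKM in Iberian fetuses. Only 4 crossbred fetuses exceeded the highest Iberian fetus. The difference was 0.95 on the log2 scale (SE 0.23, adjusted p = 0.0285 in limma), whereas BIN1, at 232 ± 61.4 FPKM in crossbred against 196 ± 49.7 FPKM in Iberian fetuses (n = 16 per genotype, ± SD), was not called. XLOC_025497 was listed with a span of 9 loci and 77665 bases, over LOC106507812 and LOC106507813, and this span lies 194 bases from GPAT3, an enzyme of triglyceride synthesis. XLOC_025497 had 1.41, 4.50 and 8.69 FPKM in crossbred against 0.586, 2.30 and 4.27 FPKM in Iberian fetuses. Its log2 fold change was 0.82 (SE 0.21, adjusted p = 0.0390 in limma). XLOC_002997, XLOC_006169 in the span of RBMS3, an RNA-binding protein, and XLOC_003619, whose span of 25966 bases touches an untranslated exon of RFC3, a subunit of the clamp loader of DNA replication, had log2 fold changes of 0.96, 0.87 and 0.84. Of these 5 loci XLOC_006169 alone was called with the sow as a block (adjusted p = 0.0431 in limma).

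**Figure D3:**
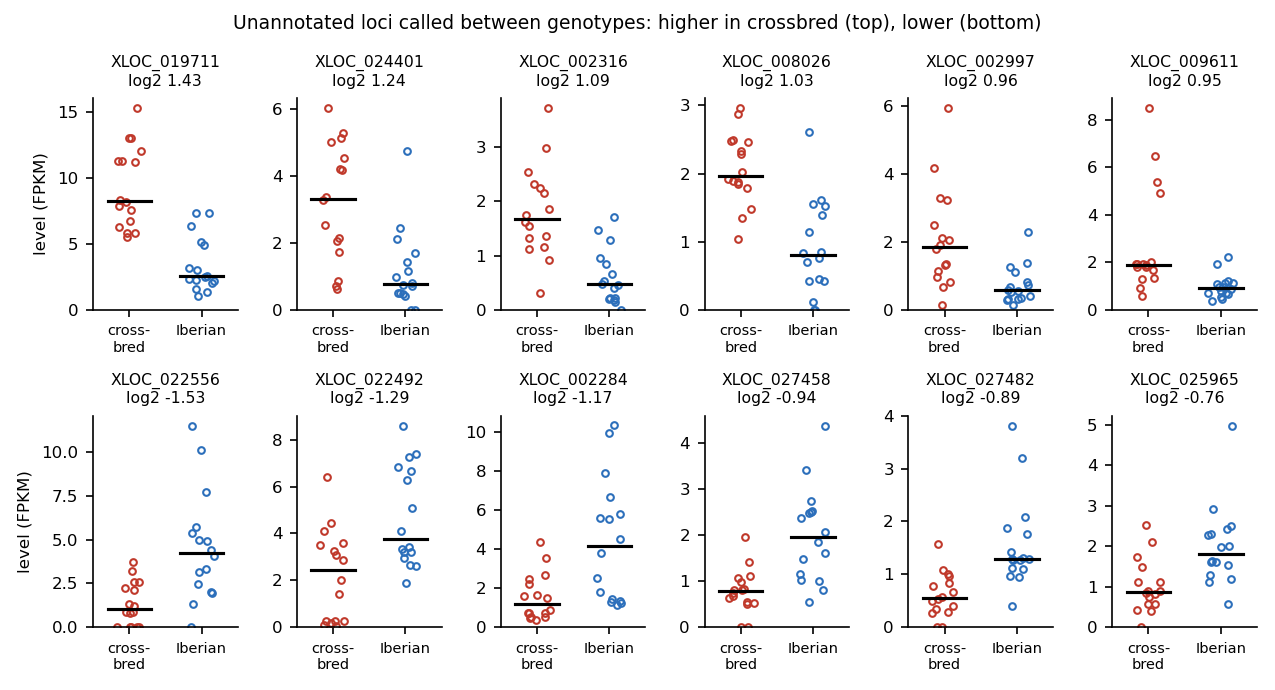
Level in FPKM of each fetus for the 6 unannotated loci with the largest increase (top row) and the 6 with the largest decrease (bottom row) in crossbred fetuses. Each point is a fetus (16 crossbred on the left, 16 Iberian on the right), the bar is the group median and the number above is the log2 fold change; the groups overlap in every panel.

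Several increases shared a span. In the span of REV3L on chromosome 1 (77195194 to 77475831), whose protein is the catalytic subunit of DNA polymerase zeta, 3 of 12 loci were members of the set and all 3 were called: XLOC_000267, XLOC_002315 and XLOC_002316 with log2 fold changes of 0.81, 0.88 and 1.09. XLOC_002316 had 0.310, 1.68 and 3.72 FPKM in crossbred fetuses and 0, 0.469 and 1.72 FPKM in Iberian fetuses (SE 0.21, adjusted p = 0.00500 in limma). In the fit blocked on sow XLOC_002316 alone kept its call (adjusted p = 0.0202), with 0.0996 for XLOC_000267 and 0.0721 for XLOC_002315. The 2 loci named REV3L, at -0.11 and 0.17, were not called. RefSeq also lists the protein-coding gene LOC102167874 (77400097 to 77477365) and the non-coding genes LOC110260596 and LOC106508920 over part of this span. Of the loci below the level limit in this span XLOC_002317 was called with 0.77, while XLOC_002312 and XLOC_002320 had -0.0042 and -0.09 without a call.

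In the span of OGFRL1 and the microRNA genes ssc-mir-30a and ssc-mir-30c-2 on chromosome 1 (51313014 to 51429649), XLOC_002280 and XLOC_002282 were called and XLOC_002281 was not. RefSeq also places the protein-coding gene LOC102157778 (51369470 to 51429036) and the non-coding gene LOC106508872 in this span. XLOC_002280 had 1.62, 3.64 and 6.25 FPKM in crossbred fetuses and 0.923, 1.87 and 3.93 FPKM in Iberian fetuses. The difference was 0.81 on the log2 scale (SE 0.15, adjusted p = 0.00344 in limma), and 7 crossbred fetuses exceeded the highest Iberian fetus. Blocked on sow, XLOC_002280 kept its call (adjusted p = 0.0280 in limma) and XLOC_002282 did not (adjusted p = 0.131). The locus ENSSSCG00000035593 in the same span was also called, with 0.90 (adjusted p = 2.7e-05 in limma), whereas OGFRL1 had 0.17 and both microRNA genes were listed at 0 in all fetuses. The library selects messenger RNA, and these levels say nothing of the mature microRNAs.

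In the span of the zinc finger genes ZKSCAN8 and ZSCAN16 on chromosome 7 (21950389 to 22000953), XLOC_024401 had 0.621, 3.31 and 6.01 FPKM in crossbred fetuses and 0, 0.766 and 4.72 FPKM in Iberian fetuses. Its log2 fold change was 1.24 (SE 0.29, adjusted p = 0.0247 in limma). XLOC_024400 was called with 0.80, XLOC_024399 was not called with 0.91, and the loci XLOC_024398 and XLOC_024402, below the level limit, were called with 0.69 and 0.74. The named locus of ZKSCAN8 and ZSCAN16 had 0.24 and an adjusted p of 0.0643 in limma.

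In the row beside MYOD1 only XLOC_014705 was called, with 6.44, 10.8 and 26.8 FPKM in crossbred fetuses and 2.12, 6.64 and 13.8 FPKM in Iberian fetuses. The difference was 0.81 on the log2 scale (SE 0.20, adjusted p = 0.0354 in limma; 0.0833 in the fit blocked on sow). The other 4 loci of the row had 0.59 to 0.67 with adjusted p of 0.0587 to 0.117, and MYOD1 had 0.47 (SE 0.18, adjusted p = 0.159). The fold changes of all 6 were positive, and a call of 1 of them does not show that it differed from the others.

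**Figure D4:**
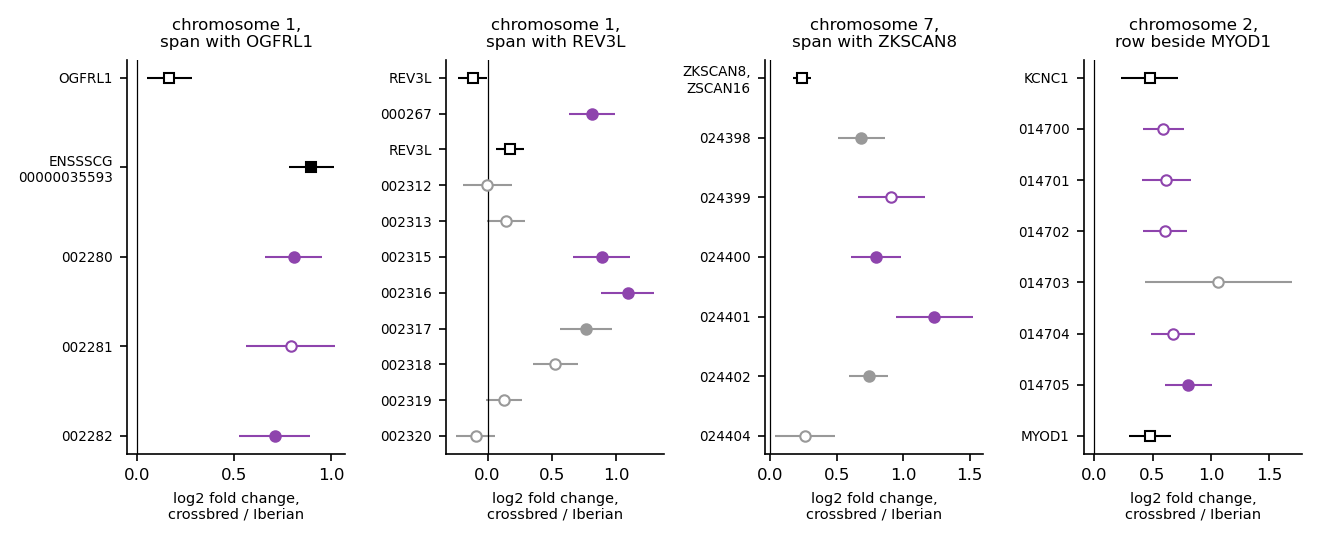
Log2 fold change of crossbred over Iberian fetuses with its standard error for the loci tested in 3 spans with several calls and in the row beside MYOD1. Squares are named loci, purple circles are unannotated loci of the set (XLOC numbers), grey circles are unnamed loci outside its limits, and filled symbols were called; MYOD1 has 0.47 and the called XLOC_014705 has 0.81.

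The 14 loci that were lower in crossbred fetuses included 9 between genes and 8 with their own span under 600 bases. XLOC_022556, of 215 bases and printed above, had 0, 1.05 and 3.71 FPKM in crossbred fetuses and 0, 4.26 and 11.5 FPKM in Iberian fetuses. No crossbred fetus reached the Iberian median, and 9 of 16 Iberian fetuses exceeded the highest crossbred fetus. The log2 fold change was -1.53 (SE 0.38, adjusted p = 0.0345 in limma), and the call was kept in 22 of 32 fits that left out 1 fetus. Its nearest named locus, ENSSSCG00000036182 at 1146 bases, had -0.54 and was not called.

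XLOC_022492 on chromosome 6 (56997455 to 56998234) had 0.0658, 2.43 and 6.39 FPKM in crossbred fetuses and 1.88, 3.77 and 8.60 FPKM in Iberian fetuses. Its log2 fold change was -1.29 (SE 0.34, adjusted p = 0.0466 in limma). XLOC_002284, also printed above, lies 1431 bases from SNORD50, a small nucleolar RNA, and had 0.373, 1.18 and 4.37 FPKM in crossbred against 1.14, 4.15 and 10.3 FPKM in Iberian fetuses. The difference was -1.17 on the log2 scale (SE 0.30, adjusted p = 0.0421 in limma), and 8 Iberian fetuses exceeded the highest crossbred fetus. The SNORD50 locus had -0.34 and was not called.

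XLOC_019858 on chromosome 5 (61112648 to 61113092) had 0.491, 1.07 and 1.95 FPKM in crossbred against 0.131, 1.97 and 3.13 FPKM in Iberian fetuses. Its log2 fold change was -0.71 (SE 0.17, adjusted p = 0.0232 in limma), and it was the only decrease that was also called without the 4 Iberian fetuses named above (adjusted p = 0.00190). Within sows, however, the crossbred mean was higher in 2 of 5. XLOC_003223, printed above, lies 2597 bases from DISP1, which releases hedgehog proteins from cells, and had -0.73. XLOC_027458, XLOC_027482, XLOC_025965 and XLOC_014659 had -0.94, -0.89, -0.76 and -0.63. In RefSeq, XLOC_027482 and XLOC_014659 lay wholly in exons of the non-coding genes LOC100517727 and LOC100739565, and XLOC_027458 lay 549 bases downstream of TATDN3. Their nearest named loci in the expression data were not called. Among these were FLVCR1, 8017 bases from XLOC_027458, and the fatty acid desaturase gene FADS2, 3610 bases from XLOC_014659.

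XLOC_011649 was called in the same span and direction as a named gene, ZBP1 on chromosome 17 (57969765 to 57986432), a sensor of nucleic acids in innate immunity. It had 0.396, 1.14 and 1.71 FPKM in crossbred fetuses and 1.27, 1.92 and 2.57 FPKM in Iberian fetuses, with 10 Iberian fetuses above the highest crossbred fetus and a log2 fold change of -0.61 (SE 0.12, adjusted p = 0.00822 in limma). ZBP1 had -0.50 (SE 0.09, adjusted p = 0.00258). KCNN3, a calcium-activated potassium channel, was also called next to a called locus: XLOC_018365, 213 bases away and downstream of it on chromosome 4 (95115430 to 95116301), had 0.65 (SE 0.15, adjusted p = 0.0217) and KCNN3 0.66 (SE 0.16, adjusted p = 0.0283).

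Span and direction went together among the called loci. Of the 24 called loci with a span of their own, the 12 higher in crossbred fetuses had a median span of 5589 bases and the 12 lower had 405 bases. Spans under 600 bases held 1 of the increases and 8 of the decreases. Among the loci of 201 to 300 bases, called or not, 44 of 114 had a positive and 70 a negative fold change, with a median of -0.05, and among those over 10000 bases 46 of 74 were positive, with a median of 0.10. The 13 increases and 2 decreases with shared spans are left out of this comparison because their own length is not given. The relation was seen in the data and was not tested.

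**Figure D5:**
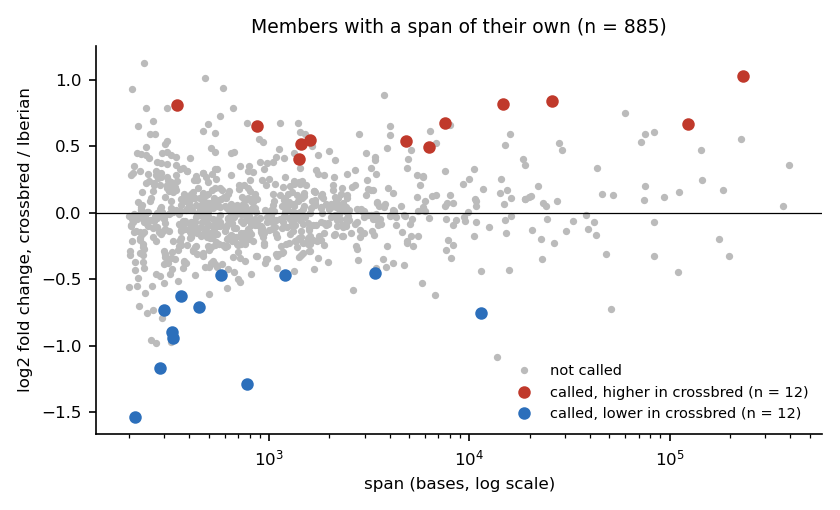
Log2 fold change of crossbred over Iberian fetuses (vertical axis) against span in bases (log scale) for the 885 unannotated loci with a span of their own. Grey points were not called; the 12 loci called higher have a median span of 5589 bases and the 12 called lower have 405 bases.

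More of the loci were called for sow than for genotype. In an F test over the 7 sow numbers with genotype as a covariate (limma, adjusted p of at most 0.05, no fold minimum), 236 of the 1370 loci were called (17.2%), against 23.8% of all loci tested. In 157 of the 236 (66.5%) sow 1340 lay farthest from the mean of the sows, and this was so for 84.8% of all loci called for sow. Without fetus 1340F8L or 1340F9L the number called was 141 or 130. Sow 1340 had 3 crossbred fetuses and 1 Iberian fetus.

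In 4 of the 5 loci with the smallest p for sow, the values of sow 1340 did not overlap with those of the other sows. These 5 were picked by that p. Among all 236 loci called for sow, the fetuses of sow 1340 lay above all others in 15 and below all others in 6. The same share over all loci of the table is not given here. XLOC_011055 (chromosome 17, 46686255 to 46687897), next to OSER1, had 6.20 to 15.8 FPKM in the 4 fetuses of sow 1340 and 1.49 to 4.69 FPKM in the other 28. XLOC_025438 on chromosome 8 had 5.42 to 10.02 FPKM in sow 1340 and at most 3.33 FPKM in the others. XLOC_016914 on chromosome 4, 16465 bases from PTK2, the focal adhesion kinase, was lower, with 0.157 to 0.907 FPKM in sow 1340 and at least 1.2996 FPKM elsewhere. XLOC_007622 had 2.18 to 4.02 FPKM in sow 1340 and at most 1.34 FPKM in the others. XLOC_016883, next to OPLAH, an enzyme of glutathione turnover, had 2.89 to 12.96 FPKM in sow 1340, and 4.61 FPKM in 1 fetus of sow 1412 overlapped with this range. Adjusted p lay between 4.72e-07 and 1.38e-05 in limma. Within this sow the Iberian fetus, 1340F7L, had the value nearest to the other sows for XLOC_011055, XLOC_016914, XLOC_007622 and XLOC_016883.

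Sex called none of the loci. Among 8 females and 8 males, 0 of 1370 loci were called in crossbred fetuses (background 0.125%) and 0 of 1369 in Iberian fetuses (background 0.116%) in limma. An unadjusted p under 0.05 was found for 150 of the 1370 loci in crossbred fetuses, against 2503 of all 16843 loci tested. In Iberian fetuses it was found for 59 of 1369, against 370 of all 16414 loci tested. With the sow as a random effect 69 loci were called in crossbred fetuses, against a background of 6.04% of the 16843 loci tested in the same fit.

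The overall level of the unannotated loci differed among libraries. The mean deviation of the 1370 loci from their average over fetuses was -0.20 to 0.30 in crossbred and -0.34 to 0.35 in Iberian fetuses on the log2(FPKM + 0.5) scale, while that of the named loci was -0.12 to 0.15 in crossbred and -0.08 to 0.08 in Iberian fetuses. The 2 genotypes overlapped throughout, with medians of -0.01 in crossbred and -0.06 in Iberian fetuses. The lowest was 1417F3L and the highest 1410F2L, both Iberian, and between 1161 and 1349 of the 1370 loci exceeded 0.5 FPKM in a fetus.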

How the data were processed

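RNA was sequenced by the authors as unstranded pairs of reads from messenger RNA libraries. Per the labels and methods, reads were trimmed with Trim Galore, aligned to Sscrofa11.1 with TopHat2 2.1.0 and Bowtie2 (2.2.7.0 in the submitters' notes), and assembled and quantified with Cufflinks 2.2.1 and Cuffdiff, which shares out reads with several matches. The deposited table holds FPKM made by the authors, for 30413 loci, with every library column mapped to its fetus. Counts and depth are not given in it. Starts counted from 0 in the table were raised by 1.

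The 1370 loci, the lists, tests and naming rules were chosen with earlier results of these data known. Named are the 10 called loci per direction with the largest change and medians in that direction, the 10 with the highest level, the 5 longest, the 5 with the smallest p for sow, any called for sex, those at the limits, and their neighbours. The loci in shared spans and rows, XLOC_014705, XLOC_018365, XLOC_027274 and XLOC_003490 with their neighbours were named after their values were seen.

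Values were fitted as log2(FPKM + 0.5) in limma 3.58.1 (R 4.3.3), with a variance trend, keeping loci that averaged more than 0.5 FPKM in either group, and with Benjamini-Hochberg adjustment over the whole table. Simulated data with 50 changed loci at each fold gave 24% recovered at a fold of 1.3, 56% at 1.5, 92% at 2 and 98% at 3, with 9 unchanged loci called of 16314 in the genotype comparison. The simulation had no effect of sow and drew the changed loci from the whole table. Unannotated loci had a wider spread than named loci, so recovery and false calls among them are not known from it. Spans were compared with RefSeq release 106, and similarity was searched with BLAST 2.17.0 (identity of at least 85%). Tables and figures were made with pandas 2.3.3, numpy 2.4.6, scipy 1.17.1, pysam 0.24.0 and matplotlib 3.10.9 (Python 3.11.15), and random effects with statmod 1.5.0. One result is not reported here.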

Additional observations from a re-analysis of the deposited data

How the results depend on the processing

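With 39 unannotated loci called between genotypes (25 higher and 14 lower in crossbred fetuses), the count was within 1.5 times with robust variances, a sex covariate, no fold minimum, a level filter of 1 FPKM or none, rescaling by medians of ratios, and a pseudocount of 0.1 or 1. It was lower with the sow as a block (8, with 8 higher and 0 lower), with the sow as a random effect (25, with 7 lower), without the 4 fetuses of sow 1340 (15, with 9 higher and 6 lower) and without 1404F1L, 1404F2L, 1410F5L and 1417F3L (5, with 4 higher and 1 lower). In sows with both genotypes only, 34 were called, of which 8 were lower; 23 of the 34 were among the 39, and 9 of the 20 loci named for genotype lost their call. The 2 settings that leave out 4 fetuses were chosen after seeing the data, and the cause was not tested. Leaving out each fetus gave 20 to 46 calls, 11 to 30 higher and 7 to 16 lower, 0 to 2 calls for sex in crossbred fetuses, 0 to 1 in Iberian fetuses, and 130 to 323 for sow. The share over all loci is not given here for these fits, nor for those without sow 1340 or in sows with both genotypes. The calls for sex in crossbred fetuses became 69 with the sow as a random effect. No fold change of the 20 loci named for genotype changed sign under any alternative; with the sow as a block 4 of these 20 were called, and without 1404F1L, 1404F2L, 1410F5L and 1417F3L 3 were.

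With a level limit of 0.5 FPKM there were 2618 loci and with 2 FPKM 654. The share near a named locus was 51.09% within 1 kb, 86.06% within 10 kb, 68.98% within 5 kb of loci with a gene symbol and 83.16% within 5 kb of RefSeq genes for loci with their own span. For the named loci under the same limits it was 61.4% within 1 kb and 80.6% within 10 kb. Levels near 1 FPKM of short spans may rest on few fragments, whose number is not known. No paired analysis was possible because the replicate numbers were given in accession order and pair no fetuses; the sow was fitted as a block and as a random effect instead.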

Other observations

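The unannotated loci were spread over all 18 autosomes. Set against the named loci under the same limits, there were 6.63 for every 100 named loci on chromosome 12, the lowest share, and 16.6 on chromosome 11, the highest. Chromosome 6 held the most (159) and chromosome 16 the fewest (24). Called loci were found on 16 of the 18 chromosomes and were most numerous on chromosome 1 (7). None lay on chromosomes 12 and 18, which held 48 and 41 of the unannotated loci. Over all chromosomes 2.85% of the unannotated loci were called. The share over all loci tested on each chromosome is not given here, so no chromosome is singled out by these counts. Chromosome 1 held 132 of the unannotated loci. Among its called loci, XLOC_000267, XLOC_002315 and XLOC_002316 share a span, and XLOC_002280 and XLOC_002282 share another.

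Unnamed loci outside the limits stood next to those described. XLOC_014703, of 138 bases in the row beside MYOD1, averaged 40.9 ± 32.5 FPKM in crossbred against 19.7 ± 12.9 FPKM in Iberian fetuses (n = 16 per genotype, ± SD), and with a log2 fold change of 1.06 (SE 0.63) it was not called (adjusted p = 0.387 in limma). XLOC_024402, below the level limit in the span of ZKSCAN8 and ZSCAN16, had 0.190, 0.821 and 1.56 FPKM as lowest, median and highest value in crossbred and 0.0380, 0.169 and 0.668 FPKM in Iberian fetuses, a log2 fold change of 0.74 (SE 0.15, adjusted p = 0.00822 in limma). On the mitochondrial genome an unnamed locus at positions 1 to 1124 averaged 240 FPKM over the 32 fetuses and ranged from 14.0 to 433 FPKM.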
